A study of Mus musculus with 4 samples.

Results

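The 10 CC chemokine genes Ccl2, Ccl3, Ccl4, Ccl5, Ccl6, Ccl7, Ccl9, Ccl22, Ccl24 and Ccl25 were followed across 4 arrays of mouse liver RNA. They were taken by gene symbol from the platform annotation, 10 of the 22180 genes that a probe set with 1 symbol could name. Each had 1 probe set, so no choice among probe sets was needed. All 4 groups were C57Bl6 mice aged 16 weeks that carried floxed Myd88 (MyD88 lox/lox). The 2 knockout groups also carried a Cre recombinase under the albumin promoter (ALB Cre MyD88 lox/lox), which is active in hepatocytes, so the other liver cells kept the gene. A wild-type and a knockout group ate control diet with 9.4% fat, and the other wild-type and knockout groups ate high-fat diet with 60% fat. Each group was 1 array, hybridised with the pooled liver RNA of 4 to 5 mice that had been selected on RNA quality. No group had a replicate, so the spread between mice is not known and no difference between 2 arrays could be tested.

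CC chemokines are small secreted proteins with a pair of adjacent cysteines near the amino terminus, which draw leukocytes along a concentration gradient by binding G protein-coupled receptors of the Ccr family. Atypical receptors such as Ackr2 bind many of the same ligands and remove them without signalling. Myd88 is the adaptor through which most Toll-like receptors and the interleukin-1 receptor activate NF-kappaB, and several CC chemokine genes, among them Ccl2 and Ccl5, are known targets of that factor. In liver, resident macrophages (Kupffer cells), endothelial cells, stellate cells and hepatocytes can all make CC chemokines, and Ccl2 is best known for recruiting blood monocytes to the fatty liver. The design asks whether chemokine transcripts differ with the diet, with hepatocyte Myd88, or with the diet in a way that depends on Myd88.

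None of the 10 genes differed by 1.5-fold between any of the compared arrays. The largest member difference was that of Ccl4, 0.52 on the log2 scale, or 1.43-fold, between high-fat and control diet in the knockout. Values are log2 expression values after robust multi-array averaging, so a difference of 1 is 2-fold. A filter kept the 13308 genes whose mean over the arrays reached the 40th percentile of all genes, a log2 value of 3.47. Of the members 8 passed it, and Ccl2 and Ccl22 did not. The files used hold no background calls, so for dim probe sets a low transcript level and an unspecific signal cannot be told apart, and their differences are compressed.

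The arrays matched the labelled tissue. The hepatocyte gene Alb, for serum albumin, lay between 13.64 and 13.70 on the 4 arrays. Myd88 itself was 6.10 (wild type) and 5.91 (knockout) on control diet, then 6.44 and 6.23 with high-fat diet. Whether its probes read the deleted part was not analysed here, so this is no check of the knockout. The exocrine pancreas markers differed widely between arrays: the sum of 14 measured markers on the linear scale was 664.3 (wild type) and 3505.1 (knockout) on control diet, then 3153.2 and 7310.3 with high-fat diet. The 11 skeletal muscle markers summed to 296.3 in the wild-type mice given high-fat diet, against 130.9 to 149.8 in the other groups. The part of either in the chemokine values was not tested.

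The promoters of 5 members, in 6 versions, are held in RefSeq's promoter table for GRCm38.p6 (Ccl3, Ccl6, Ccl9, Ccl22 and Ccl25). The 100 bases upstream of the start are shown for Ccl9, the member with the strongest signal in this liver RNA, and for its neighbour Ccl6, whose values ran differently. Both are read 5′ to 3′ on the minus strand, at chr11:83578637-83578736 for Ccl9 and chr11:83593088-83593187 for Ccl6. Capitals mark a match to the kappaB consensus, the type of site that NF-kappaB binds.
Ccl9: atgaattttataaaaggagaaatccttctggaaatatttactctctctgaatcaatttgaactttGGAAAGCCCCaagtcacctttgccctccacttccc
Ccl6: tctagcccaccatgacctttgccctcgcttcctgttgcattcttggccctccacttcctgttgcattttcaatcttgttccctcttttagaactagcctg
The match in Ccl9 covers bases 35 to 26 upstream of the start and is on the opposite strand. It was the 1 match in the 6 member promoters over 250 upstream bases, where 7.25% of the 32851 promoters in the table hold one. Other motifs were searched on both strands. A loose AP-1 form, TGANTCA, was in 1 member promoter (Ccl9, 6.75% of all). It takes any base at the centre, where the AP-1 consensus has C or G. The match in Ccl9 reads TGAATCA and so is not that consensus, whose share over all promoters was not counted. The Ets form AGGAAGT was in 1 (Ccl6, 7.69%), TATAAA in 2 (Ccl9 and Ccl25, 12.4%) and the STAT form TTCNNNGAA in 0 (7.02%). Ccl9 holds 3 TATAAA matches, of which those at bases 94 to 89 and 92 to 87 upstream overlap and the one at 224 to 219 stands apart. These matches describe letters in the window and show no binding. The motifs were chosen after looking at these promoters, so the counts beside the shares of all promoters are no test of enrichment.

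Ccl2 and Ccl7, neighbouring genes on chromosome 11, encode attractants of monocytes that act through the receptor Ccr2. Ccl2 (probe set 17254041) had log2 values of 3.22 (wild type) and 3.27 (knockout) on control diet, then 3.30 and 3.36 with high-fat diet. All 4 values lay below the filter, within 0.14 of each other, and the high-fat arrays were the higher ones in both genotypes, by 0.08 and 0.09. Ccl7 (probe set 17254047) was 4.46, 4.46, 4.48 and 4.38 in the same order. Its 4 arrays spanned 0.09, the narrowest range of the 10 members. Ccr2, the receptor for both, read between 3.35 and 3.43 and did not pass the filter.

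Ccl3, Ccl4 and Ccl5 encode inflammatory attractants of macrophages, T cells and NK cells. Ccl3 (probe set 17266967) was 3.69 (wild type) and 3.50 (knockout) on control diet, then 3.63 and 3.54 with high-fat diet. The knockout array was the lower one on both diets, by -0.20 and -0.09. Ccl4 (probe set 17254283) was 3.56 (wild type) and 3.29 (knockout) on control diet, then 3.77 and 3.80 with high-fat diet. The knockout control array stood lowest, and both high-fat arrays stood above both control arrays. The high-fat value exceeded the control value by 0.21 (wild type) and 0.52 (knockout). In knockout 6.14% of the genes past the filter had a larger difference in either direction. Ccl4 passed the filter narrowly, with a mean of 3.60, and on the knockout control array it lay below the filter value. In RefSeq's gene table the models of Ccl3 and Ccl4 overlap, and which of the transcripts the probes read was not analysed here, so both are uncertain.

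Ccl5 (probe set 17266946) had log2 values of 5.13 (wild type) and 5.27 (knockout) on control diet, then 5.16 and 5.24 with high-fat diet. The knockout arrays were higher on both diets, by 0.15 and 0.08, and the diet differences were 0.04 (wild type) and -0.03 (knockout). Ccl5 is abundant in T and NK cells. Of 14 markers of those cells 13 were measured and 5 passed the filter, and they summed on the linear scale to 143.5 and 146.7 in wild type and knockout on control diet and to 159.8 and 141.0 on high-fat diet. The defining markers Cd3e, at 3.63 to 3.76, and Nkg7, at 3.94 to 4.23, were dim. Their part in the Ccl5 values was not tested. In whole tissue, fewer cells of a type and less RNA per cell cannot be told apart.

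Ccl9 and Ccl6 lie next to each other between Ccl5 and Ccl3 on chromosome 11, and both encode myeloid cell chemokines that act through Ccr1. Ccl9 (probe set 17266952) was 8.90 (wild type) and 9.09 (knockout) on control diet, then 9.10 and 9.14 with high-fat diet. The wild-type control array was the lowest and the other arrays lay within 0.05 of each other. The diet differences were 0.20 (wild type) and 0.05 (knockout), and knockout exceeded wild type by 0.19 with control diet and 0.04 with the high-fat one. Ccl9 had a higher mean than 95.8% of genes, and no other member exceeded 73.4%, which ranks probe set signals and not transcript numbers.

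Ccl6 (probe set 17266960) was 4.27 (wild type) and 4.40 (knockout) on control diet, then 3.99 and 4.28 with high-fat diet. Here the wild-type high-fat array was the lowest. The diet differences were -0.28 (wild type) and -0.12 (knockout), opposite in sign to that of Ccl9 in both genotypes, and knockout was higher by 0.13 and 0.29. Macrophages are a source of both genes. All 14 Kupffer cell and macrophage markers passed the filter. They summed to 3259.0 and 3191.6 in wild type and knockout on control diet and to 2846.4 and 3031.0 on high-fat diet. The sum was lowest on the array where Ccl6 was lowest, but highest on wild-type control, where Ccl6 was not highest. On that wild-type control array Ccl9 was lowest, at 8.90. In wild type 12 of the 14 were lower on high-fat diet, with a median of -0.23, and none reached 2-fold. Of the genes past the filter 44.9% were higher in that comparison, with a median of -0.03. The lowest marker there was the scavenger receptor gene Marco, at -0.72. Marco was highest on the wild-type control array, at 6.02, and on control diet it was also lower in knockout, by -0.81. Between the genotypes on control diet 8 of the 14 markers were lower and 6 higher in knockout. In knockout 10 of the 14 were lower on high-fat diet, with a median of -0.10. There 52.2% of the genes past the filter were higher. The part of the macrophage markers in the Ccl6 and Ccl9 values was not tested.

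Ccl22, Ccl24 and Ccl25 encode attractants of other leukocytes. Ccl22, made by dendritic cells and macrophages, binds Ccr4 on T cells, and its probe set (17504122) read 3.39 (wild type) and 3.39 (knockout) on control diet, then 3.30 and 3.27 with high-fat diet. All were below the filter, and both genotypes were lower on high-fat diet, by -0.08 and -0.12. Ccl24, an attractant of eosinophils through Ccr3, read 3.97 (wild type) and 4.07 (knockout) on control diet, then 4.09 and 3.96 with high-fat diet (probe set 17453611). Its diet differences of 0.11 and -0.12 had opposite signs. Of 7 eosinophil markers 5 were measured and 0 passed the filter. Ccl25, known from thymus and small intestine, where it binds Ccr9 on lymphocytes, read 5.46 (wild type) and 5.38 (knockout) on control diet, then 5.33 and 5.32 with high-fat diet (probe set 17498830). The wild-type control array was the highest, and the diet differences were -0.14 and -0.06.

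**Figure D1:**
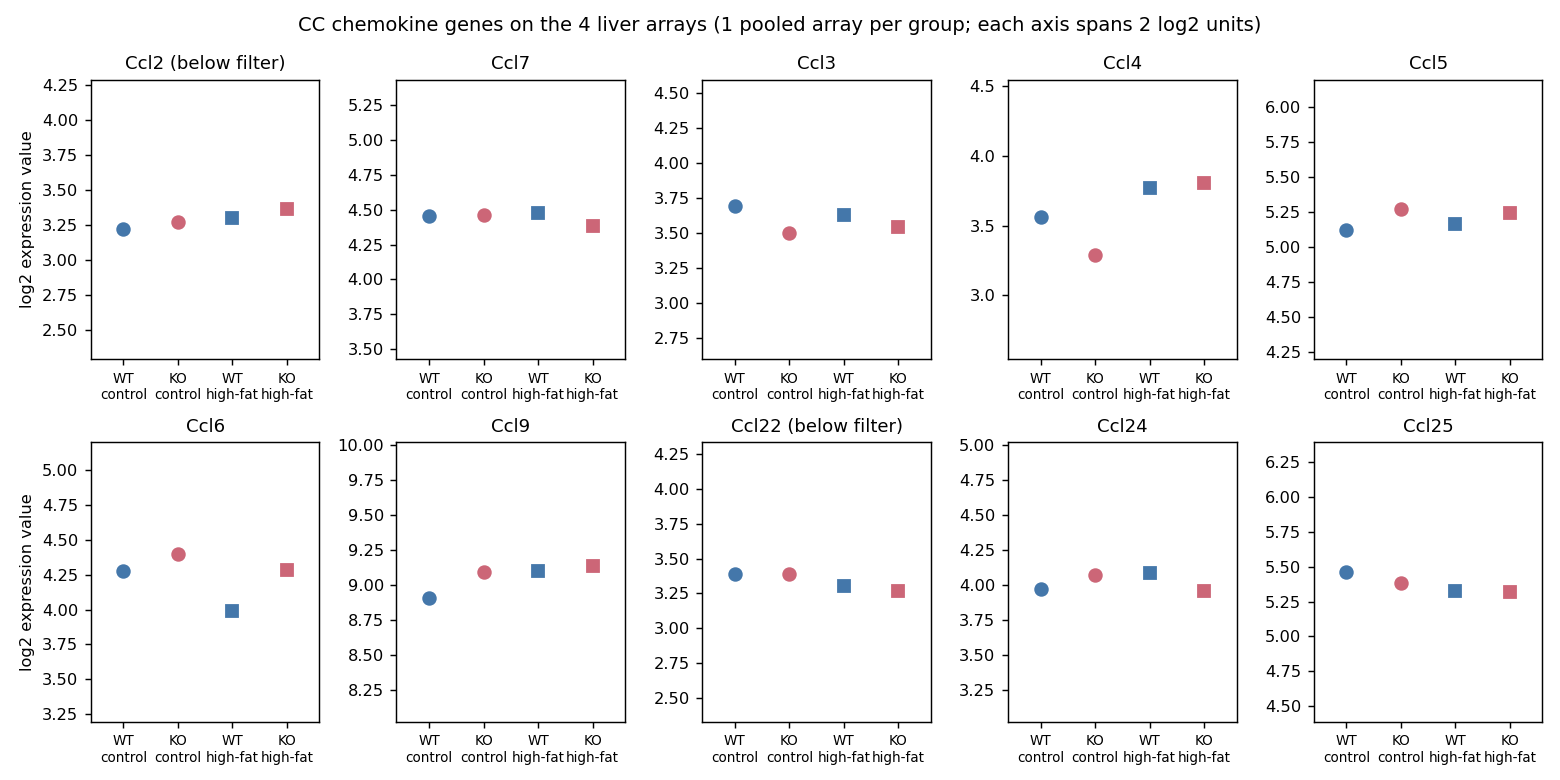
Log2 expression value of each of the 10 CC chemokine genes (vertical axis, 2 log2 units in every panel) on the 4 arrays, with circles for control diet, squares for high-fat diet, blue for wild type (WT) and red for knockout (KO). Each point is 1 pooled array without an error; Ccl4 has the widest range, 0.52, and Ccl7 the narrowest, 0.09.

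The members were then set beside all genes in each comparison. Between high-fat and control diet in wild type, 0 of 10 members reached 2-fold, against 0.64% of all 22180 genes, and 0 reached 1.5-fold, against 2.64%. Their median difference was 0.03, with 6 members higher and 4 lower, and that of the genes past the filter was -0.03. With so few genes past either fold, 0 of 10 is close to the background and says little about chemokines as a class. Between the diets in knockout, 0 members reached 2-fold (0.365% of all genes) or 1.5-fold (2.49%), with a median of -0.05 against 0.01 in the genes past the filter. Across the diet comparisons of the genotypes, which share no array, 3 members were higher in both (Ccl2, Ccl4 and Ccl9), 3 lower in both (Ccl6, Ccl22 and Ccl25) and 4 opposite, while 55.1% of the genes past the filter had the same sign.

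Between knockout and wild type on control diet, 0 members reached 2-fold (0.302% of all genes) or 1.5-fold (1.09%). The median was 0.03, against -0.02 in the genes past the filter, and the members ran from -0.27 for Ccl4 to 0.19 for Ccl9. On high-fat diet, 0 reached 2-fold (0.243% of all genes) or 1.5-fold (2.0%), with a median of 0.01, against 0.02 in the genes past the filter, and a span from -0.13 for Ccl24 to 0.29 for Ccl6. On both diets 4 members were higher in knockout (Ccl2, Ccl5, Ccl6 and Ccl9), 2 were lower (Ccl3 and Ccl25) and 4 were opposite, while 49.9% of the genes past the filter had the same sign. All 10 members lay within the central 95% of the genes past the filter in each of these 4 comparisons. Against the narrower central 95% of all 22180 genes, 1 value lay outside, that of Ccl4 between the diets in knockout, just above the upper bound of 0.50. The median size of a member's difference, without its sign, was 0.10 and 0.08 between the diets (wild type, then knockout) and 0.11 and 0.07 between the genotypes (control, then high-fat diet), where all 22180 genes had 0.13, 0.13, 0.11 and 0.13.

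**Figure D2:**
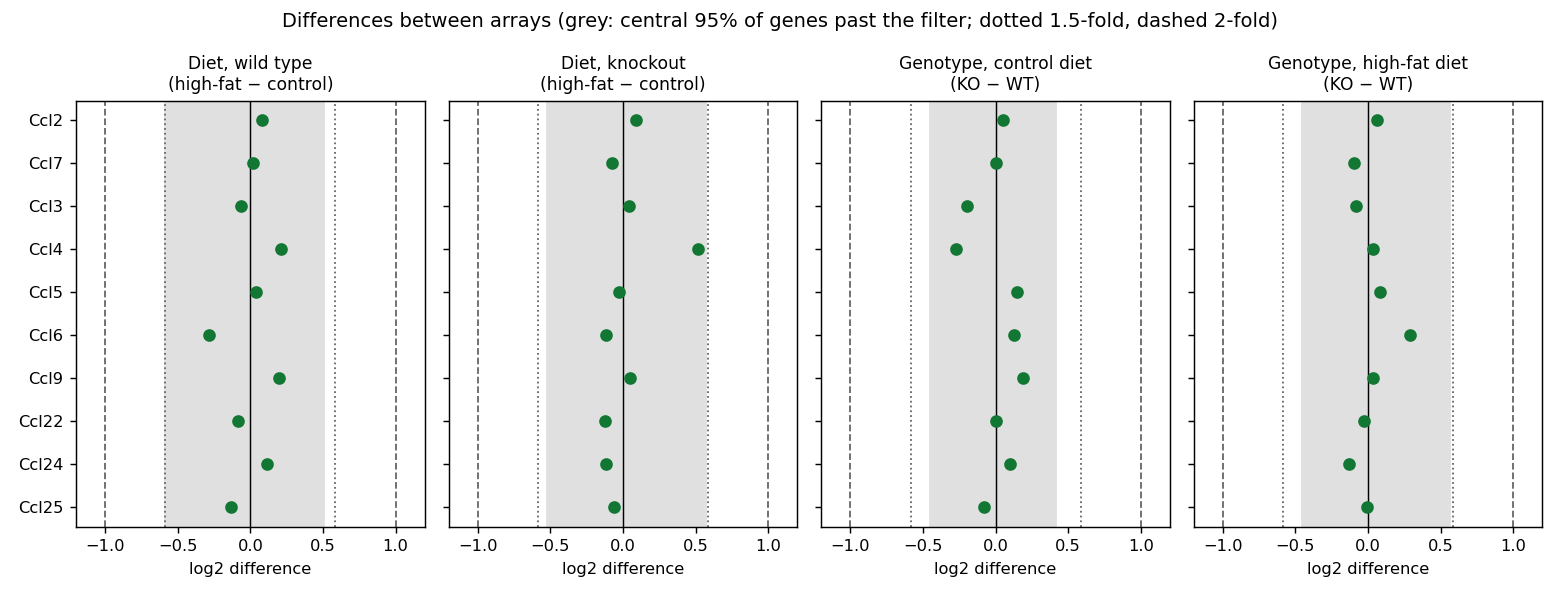
Log2 difference of each member (horizontal axis) in the 4 comparisons, 1 point per gene, each the difference between 2 single arrays. The grey band is the central 95% of the 13308 genes past the filter and the dotted and dashed lines are 1.5-fold and 2-fold; every point lies inside the band, with Ccl4 at 0.52 nearest its edge in knockout.

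The diet difference in knockout minus that in wild type, which has no test, reached 2-fold for 0 members and for 0.748% of all genes. It ran from -0.23 for Ccl24 to 0.31 for Ccl4. An additive fit of diet and genotype over all 4 arrays (limma) has 1 residual degree of freedom, which is this same difference, and so measures spread between pooled arrays and not between mice. It called 0 of the 8 members past the filter for diet and 0 for genotype at a Benjamini-Hochberg adjusted p of 0.05, as it called 0.0% of genes for either. At an unadjusted p under 0.05 the fit held 1 member for diet, Ccl4, and 0 for genotype, and 1238 and 567 genes. Ccl4, the member with the smallest p of the 8, was higher on high-fat diet by 0.36 (SE 0.14, limma, unadjusted p 0.041, adjusted p 0.512). This effect is the mean of its differences of 0.21 (wild type) and 0.52 (knockout), so their shared sign is no separate support. Its mean passed the filter of 3.47 with the help of the high-fat arrays, at 3.77 and 3.80. The control arrays read 3.56 (wild type) and 3.29 (knockout), so the filter was not independent of this difference. For Ccl9 the fit gave a diet effect of 0.12 (SE 0.13; limma, adjusted p 0.835) and a genotype effect of 0.11 (SE 0.13; limma, adjusted p 0.976). For Ccl6 it gave -0.20 (SE 0.13; limma, adjusted p 0.688) for diet and 0.21 (SE 0.13; limma, adjusted p 0.976) for genotype. These errors leave room for moderate differences, and the missed threshold does not show that the groups are alike.

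Large differences were measured on the same arrays for other inflammatory genes. The acute phase gene Saa2 and the CXC chemokine gene Cxcl1, an attractant of neutrophils, are given for scale and were chosen with their values known. Cxcl1 (probe set 17438987) was 4.64 (wild type) and 6.92 (knockout) on control diet, then 6.47 and 6.11 with high-fat diet. Saa2 was 4.97, 12.34, 10.73 and 10.83 in the same order. For both genes the wild-type control array stood far below the others. Of the 10 members, Ccl2 (below the filter), Ccl5 and Ccl9 were lowest on that array, Ccl9 by 0.19 against the nearest array. Ccl3 and Ccl25 were highest there. The lowest array was knockout control for Ccl3 and Ccl4, wild-type high-fat for Ccl6, and knockout high-fat for Ccl7, Ccl22, Ccl24 and Ccl25. The share of all genes lowest on each array was not computed, so these places show no likeness to Saa2 or Cxcl1.

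Of 14 other CC ligand genes 9 could be read, 4 of them past the filter. Ccl19, Ccl21a, Ccl21b, Ccl21c and Ccl27b had no probe set with 1 symbol and were given no value. In each of the 4 comparisons 0 of the 9 reached 1.5-fold. Ccl8, another monocyte attractant, had the largest single value, 0.42 higher on high-fat diet in knockout, where it was 3.57 against 3.15; its mean lay below the filter. On control diet 8 of the 9 were lower in knockout, with a median of -0.19, but most of those 8 lay below the filter. Of the genes past the filter 46.6% were higher in that comparison, with a median of -0.02. On high-fat diet 4 of the 9 were lower in knockout, with a median of 0.07, and 54.0% of the genes past the filter were higher. Ccl27a, which attracts T cells to skin, was lower in knockout on both diets, by -0.36 and -0.16.

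Of the 10 receptor genes read 1 passed the filter, so the receptors of the members (Ccr1, Ccr2, Ccr3, Ccr4 and Ccr9) were dim on all arrays, between 2.93 and 3.43. The receptor past the filter was Ccr7, which guides dendritic cells and lymphocytes to lymph nodes. It was 3.61 (wild type) and 3.98 (knockout) on control diet, then 4.18 and 3.77 with high-fat diet. The diet difference was 0.57 in wild type, just under 1.5-fold, and -0.21 in knockout. Among the atypical receptors, Ackr2 was 4.91, 4.77, 4.96 and 4.85, lower in knockout by -0.14 and -0.11, and Ackr3, which binds CXC ligands, was higher in knockout by 0.18 and 0.14. In the 4 comparisons 0 of the 5 atypical receptor genes reached 1.5-fold.

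Of 15 targets and feedback genes of NF-kappaB 14 were read and 12 passed the filter, and 0 reached 2-fold in the 4 comparisons. Past 1.5-fold were Tnfaip3, which encodes the inhibitor A20, higher by 0.68 with high-fat diet in wild type, Tnfaip2, lower by -0.64 with that diet in knockout, and Bcl3, a nuclear cofactor of NF-kappaB, higher by 0.68 in knockout than in wild type on control diet, and lower by -0.79 on the high-fat than on the control array of the knockout. Between the genotypes on high-fat diet Bcl3 differed by -0.50, under 1.5-fold. Nfkbia, the inhibitor induced by NF-kappaB itself, spanned 8.03 to 8.07. Il1b, the interleukin-1 beta gene, was 5.06 (wild type) and 5.29 (knockout) on control diet, then 5.61 and 5.40 with high-fat diet. The list medians were close to 0 between the diets in wild type, 0.02 between them in knockout, and 0.07 and -0.09 between the genotypes (control, then high-fat diet).

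**Figure D3:**
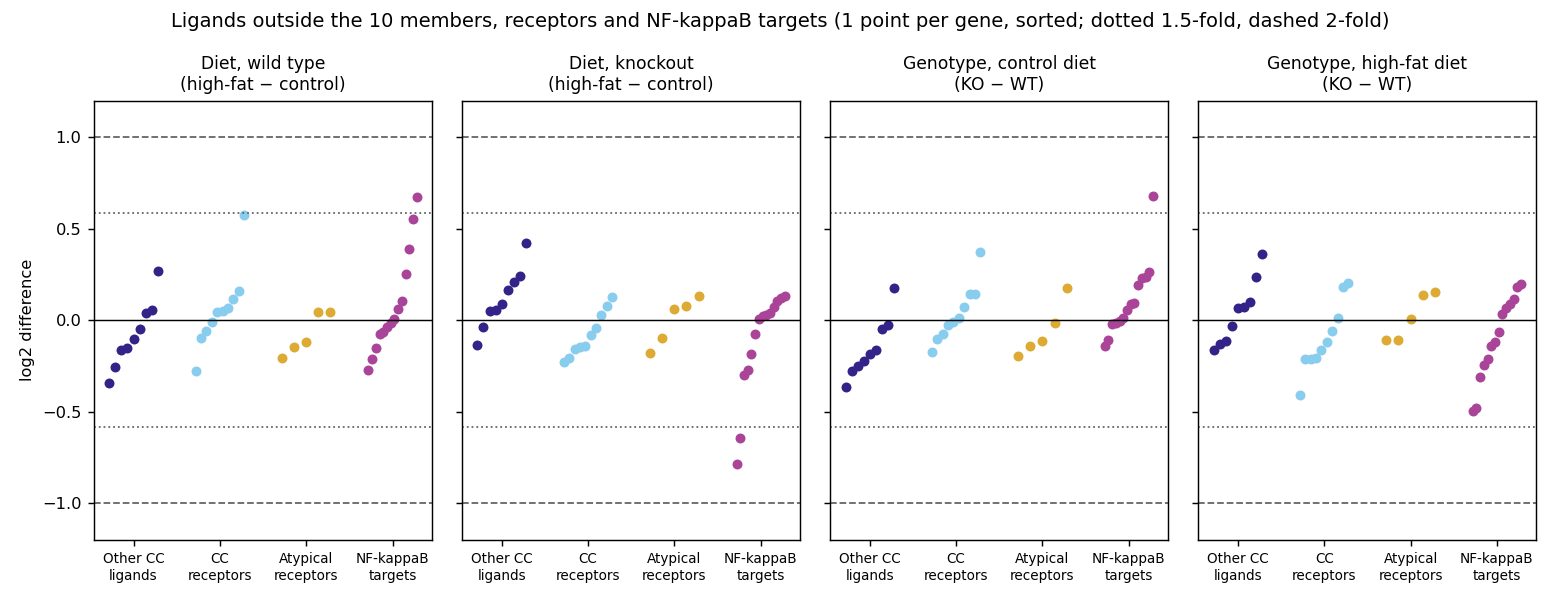
Log2 difference (vertical axis) of 9 other CC ligands, 10 CC receptors, 5 atypical receptors and 14 NF-kappaB targets in the 4 comparisons, 1 point per gene sorted by value. Points past the dotted 1.5-fold lines all belong to the NF-kappaB targets (Tnfaip3, Bcl3 and Tnfaip2), with Ccr7 at 0.57 just inside.

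The genes closest in pattern to the 2 members with the widest range were found by the root mean square difference of the values after centring each gene over the 4 arrays. For Ccl4 they were Isca1 (0.013), Ppp1r3b (0.017) and Marchf2 (0.021), and for Ccl6 Tnip1 (0.013), Fbxl17 (0.019) and Gpn2 (0.023). With 4 arrays many genes run alike: 189 of 3958 candidates lay within 0.1 of Ccl4 and 426 of 5925 within 0.1 of Ccl6.

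Markers of the remaining cell types were summed in the same way. The 12 neutrophil markers summed to between 123.7 and 125.8 and 2 passed the filter. The 9 measured monocyte markers summed to between 3389.1 and 4508.6, most of it from Fn1, which hepatocytes also express. Of these markers 5 passed the filter, while Ly6c2, at 3.16 to 3.48, and Itgam, at 3.28 to 3.58, were dim and did not. Fcgr1 passed it, at 4.70 to 5.44. Between the diets it differed by -0.73 (wild type), past 1.5-fold, and by 0.15 (knockout). Between the genotypes Fcgr1 differed by -0.15 with control diet and by 0.74, past 1.5-fold, with the high-fat one. The 9 measured dendritic cell markers summed to 241.1 and 255.2 in wild type and knockout on control diet and to 222.4 and 178.2 on high-fat diet, of which Cd209a, at 6.30 to 7.24, is the largest part. The 10 sinusoidal endothelial markers summed to between 2890.9 and 3067.4, and the 9 measured hepatocyte markers to between 55656.0 and 57840.5.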

How the data were processed

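RNA was labelled for Affymetrix arrays, 1 per group, from pooled livers, per the labels' protocols. The log2 expression values were deposited by the authors. Per the submitters' processing notes they come from RMA (background correction, quantile normalisation and probe summary) in Affymetrix Expression Console. No software version, probe library or build is given in the sources. Of 41345 probe sets 23521 had 1 gene symbol, and a gene was read from the one with the highest mean. Medians of the arrays lay between 3.53 and 3.56. Differences are subtractions of log2 values, and sums of markers are of 2 to the power of the value. Limma 3.58.1 in R 4.3.3 (lmFit, eBayes, Benjamini-Hochberg) gave the additive fit and was tested on simulated data; Python 3.11.15, pandas 2.3.3, NumPy 2.4.6 and matplotlib 3.10.9 did the rest. All 10 members matched RefSeq by Entrez identifier. The motifs were chosen after looking at the promoters, several spellings of them having been tried. The members and lists were chosen with earlier results of these data known. All 10 members are named, with measured receptors and ligands, up to 4 genes of each other list, Myd88 and the closest patterns; Saa2 and Cxcl1 are outside this rule. Alternatives were the normalisation, filter, fold, moderation and probe set rule.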

Additional observations from a re-analysis of the deposited data

How the results depend on the processing

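The count of members past 2-fold stayed at 0 in all 4 comparisons between arrays, and in the difference of diet differences, under 3 alternatives. These were cyclic loess, centring each array on the median of its genes past the filter, and the mean of all probe sets. In the 4 comparisons it was also 0 at 1.5-fold and over the members past the filter. The mean of all probe sets could not change a member's value, because each member had 1 probe set. Nor could a count over the members past the filter exceed the 0 over all members. The alternatives for the difference of diet differences were chosen after seeing the data. Over these settings the members' median ran from 0.03 to 0.08 for diet in wild type, from -0.06 to -0.05 for diet in knockout, from 0.03 to 0.07 for genotype on control diet and from -0.01 to 0.01 for genotype on high-fat diet. The largest move of a member was 0.06, and the sign changed for Ccl22 on control diet and Ccl9 on high-fat diet, both near 0 as reported. The fit called 0 members for diet and 0 for genotype under cyclic loess, no filter, a trended prior and the mean of all probe sets, although cyclic loess raised its calls over all genes from 0 to 70 for diet and to 3 for genotype; the cause was not tested. Ccl4 had an unadjusted p for diet between 0.027 and 0.041 over these fits and an adjusted p between 0.371 and 0.573 in limma. No paired analysis was possible because each group has 1 array. Signal over background is not known, which limits the dim members Ccl2, Ccl3, Ccl4 and Ccl22 most.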
